A study of Mus musculus with 16 samples.

Results

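This account covers 10 genes of calcium handling in heart muscle cells: Atp2a2, Pln, Ryr2, Casq2, Slc8a1, Cacna1c, Hrc, Trdn, Jph2 and Camk2d. Every probe set whose annotation names exactly 1 of these symbols was taken, which gave 34 of the 45037 probe sets that are not controls. A probe set is a group of short probes that reads 1 stretch of a transcript, and its signal is a brightness on a linear scale. Of the 34, 30 were bright enough to be tested, among 27022 tested in all. The dim 4 were 1443551_at of Atp2a2 and 1444031_at, 1460630_at and 1456844_at of Camk2d.

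With each heartbeat, calcium enters the myocyte through the L-type channel and opens the ryanodine receptor, which empties the sarcoplasmic reticulum (SR) onto the myofilaments. Relaxation follows when the SR pump takes the calcium back, held in check by phospholamban, and when the sodium-calcium exchanger expels the rest across the cell membrane. In hypertrophied and failing hearts, lower pump and altered release channel function are well known features.

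The samples were left ventricles of mice, hybridised to Affymetrix Mouse Genome arrays, 4 arrays per group. Wild-type (WT) and PPARalpha-/- (KO) mice were operated on, either sham or with transverse aortic constriction (TAC), a narrowing of the aorta that loads the ventricle with pressure, for 28 days. The groups are called WT sham and WT TAC, and KO sham and KO TAC. PPARalpha is a nuclear receptor that switches on genes of fatty acid use, and the study asked how its absence alters cardiac expression at rest and under sustained load. The labels name no strain, sex or age, and no cell type to which the loss of PPARalpha is limited. Nor do they say whether the arrays of a group came from different mice; a p-value therefore reflects only how far these samples scatter, and that scatter may be technical. The number of arrays limits the precision of every value. A change below is a difference in log2 signal, given with its standard error (SE) and, in brackets, a 95% interval. An adjusted p is limma's, with Benjamini-Hochberg adjustment over all 27022 probe sets, and 0.05 is the threshold for a call.

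All 3 probe sets of the targeted gene, Ppara, were lower in KO than in WT, with no overlap of arrays. Their changes ran from -1.23 to -2.18 in sham and from -1.38 to -3.33 in TAC, with adjusted p of at most 0.0128. Where these probes lie relative to the deleted part is not known here. The defining markers of cardiomyocytes were bright on every array, with all 11 listed genes tested. The highest signal of an array ran from 76152.4 in KO TAC replicate 3 to 140525.5 in WT TAC replicate 3. The mean log2 signal of 18 spike-in control probe sets was lowest and highest in the same 2 arrays, at 12.28 and 13.36. By group it ran from 12.61 to 12.85 in WT sham and from 12.91 to 13.36 in WT TAC. In KO sham it ran from 12.68 to 13.16 and in KO TAC from 12.28 to 12.95. All WT TAC arrays thus lay above all WT sham arrays. Of the KO TAC arrays, only replicate 1 reached into the range of WT TAC. KO sham replicates 1, 2 and 4 lay in that range too, at 12.95, 13.01 and 13.16.

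No probe set of the calcium handling genes passed the threshold in any of the 4 comparisons between groups. Between genotypes in TAC, 0 of 30 were called, while 0.921% of all tested probe sets were. For TAC in KO the count was 0 of 30 against 0.729% of all. Between genotypes in sham it was 0 of 30 against 0.329%, and for TAC in WT 0 of 30, where 0% of all probe sets were called. The difference between the TAC responses of the genotypes (the interaction) also gave 0 of 30 and 0% of all. In limma with an intensity trend and robust variances, 6 of 30 were called lower in KO between genotypes in TAC, against 2.17% of all called: 2 probe sets of Atp2a2, all 3 of Pln and that of Hrc. For TAC in KO, that fit called Hrc alone, against 1.86% of all. With 1 probe set per gene, Hrc was called between genotypes in TAC, where 2.46% of 10916 genes were.

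At an unadjusted p under 0.05, the members with the smallest p-values gathered in the comparison of genotypes under TAC. There, 12 of the 30 probe sets lay under that p, against 14% of all tested probe sets, and the members' median change was -0.32 against 0.00 over all. In TAC versus sham in KO, 7 of 30 lay under it (12.1% of all), with a median of -0.21 against -0.02. In TAC versus sham in WT it was 5 of 30 (6.69% of all) with a median of 0.06, and between genotypes in sham 2 of 30 (6.77% of all) with a median of 0.02. In 11 of 30 probe sets, all 4 KO TAC arrays were below all 4 WT TAC arrays, a pattern shown by 4.02% of all tested probe sets in that direction. These were 2 probe sets of Atp2a2, all 3 of Pln, 1 of Ryr2, that of Hrc and 4 of Trdn. For TAC in KO, 4 were lower without overlap (4.36% of all), namely 2 of Pln, 1 of Ryr2 and that of Hrc. For TAC in WT, 4 were higher without overlap (2.39% of all), namely 2 of Atp2a2, 1 of Pln and that of Casq2, and 1 of Atp2a2 was lower (1.59% of all). Between genotypes in sham, 1 of Pln and 1 of Camk2d were higher (2.67% of all).

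The members' median changes were smaller or of the other sign under other scalings. Between genotypes in TAC the median was -0.08 with quantile normalization, -0.13 with arrays centred on their medians and -0.02 with arrays centred on cardiomyocyte markers, where 14 of 30 were positive. For TAC in KO it was -0.11, -0.08 and -0.05 under these settings, and for TAC in WT 0.02, -0.06 and -0.25. Between genotypes in sham it was 0.00, -0.03 and -0.15. The median of all probe sets moved as well, to 0.03, 0.19 and 0.30 between genotypes in TAC and to -0.02, -0.12 and -0.31 for TAC in WT. Centring moves all probe sets of an array by the same amount. The members' distance from the median of all probe sets therefore stayed as reported under both centrings.

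**Figure D1:**
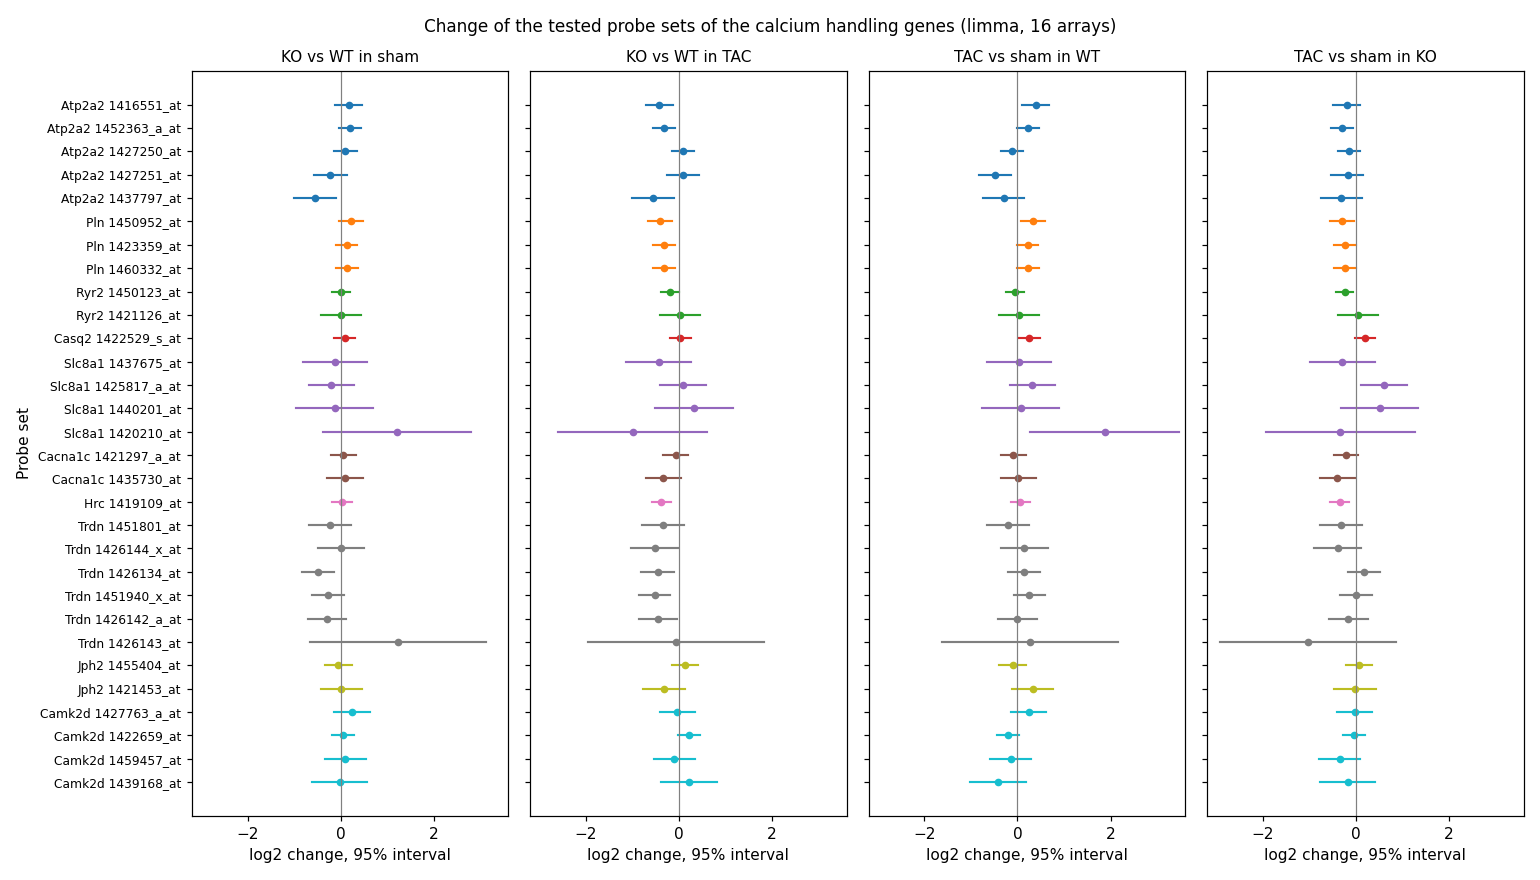
Each point is the log2 change of 1 tested probe set, with its 95% interval, in the 4 comparisons between groups (4 arrays per group, limma on 16 arrays), coloured by gene. In the panel of genotypes under TAC, 21 of the 30 points lie below 0, while in sham 19 of 30 lie above it.

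The probe sets of 1 gene share a transcript, so the 11 are not 11 separate observations. Other probe sets as bright as those of Atp2a2 and Pln mostly had the same signs, with values given further on. In tissue samples, fewer cardiomyocytes and less of a transcript per cardiomyocyte cannot be told apart. The summed signal of the 11 cardiomyocyte markers lay between 771434 and 1064490 in WT TAC and between 603069 and 757169 in KO TAC, which do not overlap. It lay between 631988 and 747721 in WT sham and between 684283 and 827654 in KO sham. Their 22 probe sets had a median change of -0.33 between genotypes in TAC, 17 of them negative and 0 called. The brightest probe sets of these marker genes had a mean log2 signal of 15.7 to 16.43 per array. Of the 207 probe sets at 15 or more that are not members, 197 were negative between genotypes in TAC. A fall of cardiomyocyte markers and that shift of bright signal cannot be told apart here. Fibroblast markers stood the other way, with a summed signal of 57514.4 to 64709.8 in KO TAC and of 38828.4 to 53163.1 over the other 3 groups. Of 10 fibroblast probe sets, 5 were called higher in KO TAC than in WT TAC and 6 higher in KO TAC than in KO sham. The part of either cell type in the members' values was not tested.

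The upstream sequences of 3 genes whose KO TAC arrays lay below all WT TAC arrays are shown, because the study deletes a transcription factor and these genes had the same order of groups under load. They are the 250 bases before the transcript start in RefSeq on build GRCm38.p6, printed 5′ to 3′ on the strand of the gene, and capitals mark the motifs searched. Ryr2 is at chr13:12106946-12107195 on the minus strand, Hrc at chr7:45335019-45335268 on the plus strand and Pln at chr10:53337436-53337685 on the plus strand.
Ryr2: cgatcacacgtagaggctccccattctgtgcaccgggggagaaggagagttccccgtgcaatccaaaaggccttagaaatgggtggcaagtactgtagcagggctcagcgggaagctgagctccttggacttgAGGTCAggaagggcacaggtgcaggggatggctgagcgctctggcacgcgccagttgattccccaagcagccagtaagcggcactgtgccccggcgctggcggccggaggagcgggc
Hrc: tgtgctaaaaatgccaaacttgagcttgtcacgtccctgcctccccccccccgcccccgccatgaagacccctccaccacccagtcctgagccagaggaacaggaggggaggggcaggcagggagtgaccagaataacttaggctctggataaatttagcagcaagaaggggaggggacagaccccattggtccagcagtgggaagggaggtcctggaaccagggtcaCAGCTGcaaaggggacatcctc
Pln: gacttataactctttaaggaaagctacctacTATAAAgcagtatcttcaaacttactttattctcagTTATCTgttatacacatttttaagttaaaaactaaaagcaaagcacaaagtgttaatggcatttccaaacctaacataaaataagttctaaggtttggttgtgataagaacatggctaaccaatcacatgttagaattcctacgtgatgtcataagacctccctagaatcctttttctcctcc
The motifs were AGGTCA, the half-site that PPARalpha and other nuclear receptors recognise, TATAAA of the TATA box, AGATAA, read by GATA factors (TTATCT on the other strand), and CAGCTG, a form of the E-box. Both strands were searched, and no motif holds another. Among 32851 such windows of all genes, 14% held AGGTCA, 12.4% TATAAA, 9.99% AGATAA and 13% CAGCTG. Windows were found for 8 of the 10 genes, 11 windows in all, and Atp2a2 and Trdn had none in the table. AGGTCA stood in 3 of the 11, that of Ryr2 and 2 overlapping windows of Jph2, which counts as a match of letters and nothing more.

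Atp2a2 encodes SERCA2, the pump that returns calcium to the SR and so sets the speed of relaxation. Its brightest probe set, 1416551_at, gave signals of 60097, 64961, 69033 and 74158 in WT sham and of 80460, 76703, 109668 and 87007 in WT TAC. In KO sham it gave 74836, 82255, 64876 and 79196, and in KO TAC 71430, 62756, 55934 and 72223. All WT TAC arrays were above all WT sham arrays and above all KO TAC arrays, while KO TAC and KO sham overlapped. The change between genotypes in TAC was -0.43 ± 0.14 (SE, n = 4; -0.72 to -0.13), or 1.34-fold lower in KO, with adjusted p = 0.191. For TAC in WT it was 0.39 ± 0.14 (0.10 to 0.68; adjusted p = 0.686), and for TAC in KO -0.20 ± 0.14 (-0.50 to 0.09; adjusted p = 0.607). Between genotypes in sham the change was 0.17 ± 0.14 (-0.13 to 0.46; adjusted p = 0.901).

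The changes of the Atp2a2 probe sets did not all have the same sign. 1452363_a_at had all KO TAC arrays below all WT TAC arrays as well, with mean log2 signals (± SD, n = 4) of 15.88 ± 0.12 in sham and 16.11 ± 0.12 in TAC for WT, and of 16.07 ± 0.12 in sham and 15.78 ± 0.14 in TAC for KO. In 1427250_at the change for TAC in WT was -0.12 ± 0.11, and between genotypes in TAC 0.08 ± 0.11. In 1427251_at, TAC in WT gave -0.48 ± 0.16 (-0.82 to -0.13; adjusted p = 0.672), with WT sham arrays at 1989, 2284, 2436 and 3024 and WT TAC arrays at 1833, 1594, 1679 and 1821. Here all WT TAC arrays lay below all WT sham arrays, the reverse of the brightest probe set. The difference between the 2 probe sets' changes was 0.87 ± 0.22, with an unadjusted p of 0.00157 and an adjusted p of 0.788 over 9617 such pairs of all genes. In 1437797_at the genotypes differed by -0.55 ± 0.21 in sham and -0.56 ± 0.21 in TAC (adjusted p = 0.574 and 0.256), and the mean KO effect was -0.55 ± 0.15 (adjusted p = 0.119). Leaving out the 3 arrays whose spike-in signal was furthest off, this was the 1 member called for the mean KO effect (adjusted p = 0.0431), against 0.637% of all probe sets. Which transcript end or form each probe set reads is not known here.

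Pln encodes phospholamban, the small SR membrane protein that slows the pump until it is phosphorylated. Its brightest probe set, 1450952_at, gave 57769, 61802, 68576 and 69896 in WT sham and 77572, 75063, 93857 and 80230.5 in WT TAC. In KO sham it gave 77254, 77338, 69910.5 and 75238, and in KO TAC 65527, 57834, 52171 and 70097. WT TAC and KO sham both lay above all WT sham arrays, and all KO TAC arrays lay below all WT TAC arrays. The change between genotypes in TAC was -0.42 ± 0.12 (-0.67 to -0.16; adjusted p = 0.139), or 1.33-fold lower in KO. TAC gave 0.34 ± 0.12 in WT (0.08 to 0.59; adjusted p = 0.686) and -0.30 ± 0.12 in KO (-0.55 to -0.04; adjusted p = 0.324). The interaction, -0.63 ± 0.17, had the smallest p of all members in that comparison, with adjusted p = 0.416.

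All 3 Pln probe sets had the same sign in each of the 4 comparisons. 1423359_at and 1460332_at both gave -0.32 ± 0.11 between genotypes in TAC and 0.22 ± 0.11 for TAC in WT, and for TAC in KO they gave -0.23 ± 0.11 and -0.24 ± 0.11. In both, all KO TAC arrays lay below all KO sham arrays as well. None of the 3 was called in any comparison.

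**Figure D2:**
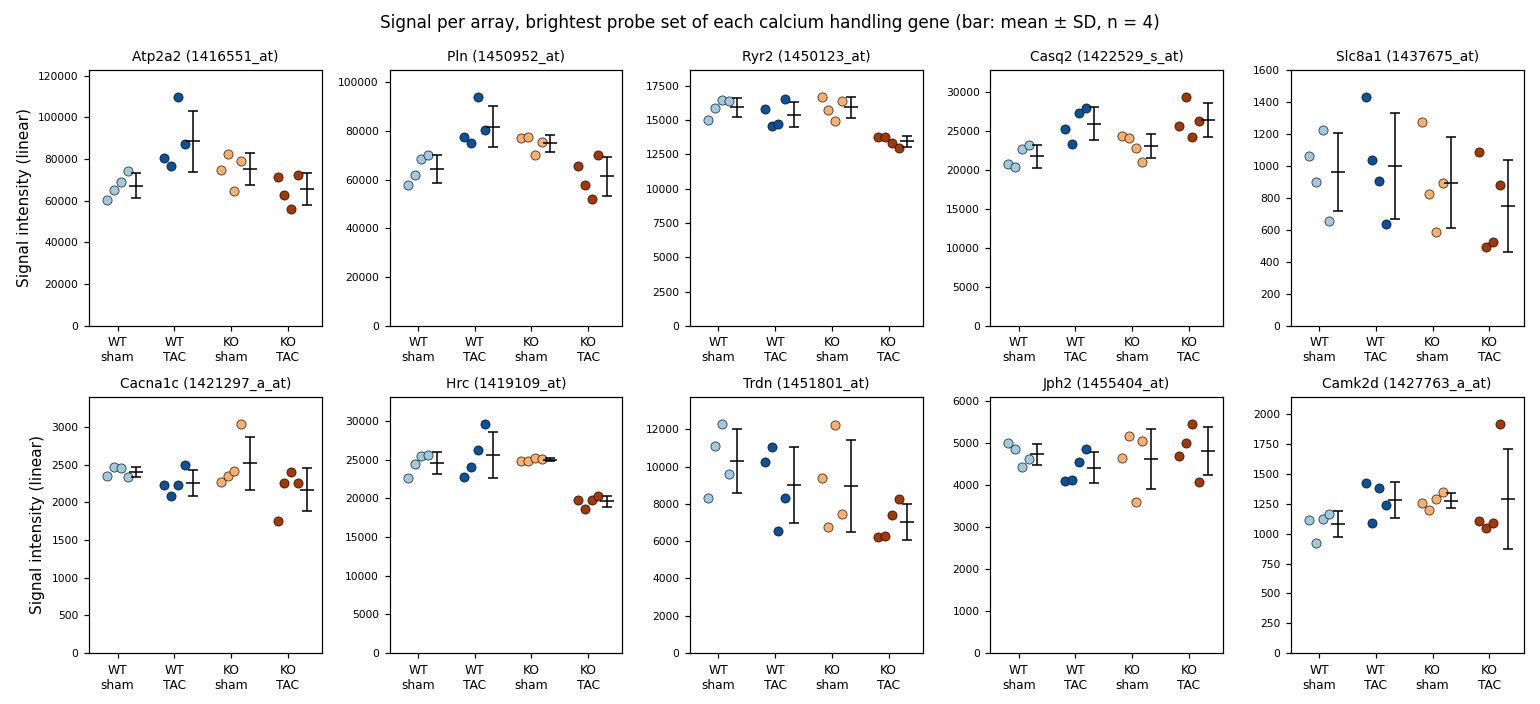
Signal intensity on a linear axis for the brightest probe set of each of the 10 genes: points are arrays in replicate order, bars are mean ± SD (n = 4). In Hrc and Ryr2 the 4 KO TAC points lie below the other 12, in Atp2a2 and Pln the WT TAC points lie above those of WT sham and KO TAC, and in Slc8a1 all groups overlap.

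The balance of pump and inhibitor was taken as the log2 signal of Atp2a2 minus that of Pln within each array, between their brightest probe sets. Only its differences between groups can be read, since the probes of different genes are not on 1 scale. In WT it was 0.056 ± 0.033 (SD, n = 4) after sham and 0.106 ± 0.087 after TAC, and in KO 0.002 ± 0.095 after sham and 0.096 ± 0.037 after TAC. The differences were -0.010 between genotypes in TAC, 0.094 for TAC in KO, 0.050 for TAC in WT and -0.054 between genotypes in sham. Single WT arrays ran from 0.010 to 0.085 after sham and from 0.031 to 0.225 after TAC, and KO arrays from -0.108 to 0.089 and from 0.043 to 0.124, so that all groups overlapped. In a two-sided exact permutation test the p-values were 0.829, 0.143, 0.371 and 0.4 (adjusted over the 4: 0.829, 0.533, 0.533 and 0.533), where 0.0286 is the smallest that 4 against 4 arrays can give. With the mean of each gene's probe sets in place of the brightest, the difference for TAC in WT was -0.318 (adjusted p = 0.0571) and that between genotypes in TAC 0.119. Under that mean, all WT TAC arrays and all KO sham arrays lay below all WT sham arrays. Such an order gives the smallest p of the exact permutation test, 0.0286 before adjustment.

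Ryr2 encodes the cardiac ryanodine receptor, the channel through which the SR releases calcium. Its bright probe set, 1450123_at, gave 14985.5, 15860, 16441 and 16435 in WT sham, 15829, 14572, 14713.5 and 16523 in WT TAC and 16687, 15764, 14964 and 16393.5 in KO sham. In KO TAC it gave 13763, 13778, 13325 and 12977. The 4 KO TAC arrays were the lowest of the 16, while the other 3 groups overlapped. The change was -0.24 ± 0.09 for TAC in KO (-0.43 to -0.06; adjusted p = 0.262) and -0.19 ± 0.09 between genotypes in TAC (-0.38 to 0.00; adjusted p = 0.345). For TAC in WT it was -0.05 ± 0.09 (-0.24 to 0.14), and the interaction was -0.20 ± 0.12 (adjusted p = 0.679). The dimmer 1421126_at gave changes from 0.01 to 0.05 in the 4 comparisons, each with an SE of 0.20, and its difference from 1450123_at between genotypes in TAC was -0.22 ± 0.20 (adjusted p = 0.725).

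Hrc encodes the histidine-rich calcium-binding protein of the SR lumen, which binds both the pump and triadin. Its only probe set, 1419109_at, gave 22577, 24414, 25527 and 25593 in WT sham, 22727, 24021, 26236 and 29556 in WT TAC and 24803, 24829.9, 25179 and 25085 in KO sham. In KO TAC it gave 19755, 18669, 19745 and 20344. As in Ryr2, the KO TAC arrays lay below all other 12, an order that 0.655% of all tested probe sets showed. The change between genotypes in TAC was -0.38 ± 0.10 (-0.59 to -0.17), or 1.3-fold lower in KO, and its adjusted p of 0.102 was the smallest of the members there. For TAC in KO it was -0.35 ± 0.10 (-0.56 to -0.14; adjusted p = 0.141), and for TAC in WT 0.06 ± 0.10 (-0.15 to 0.27). The interaction was -0.41 ± 0.14 (-0.71 to -0.11; adjusted p = 0.49).

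Casq2 encodes cardiac calsequestrin, the protein that stores calcium inside the SR next to the release channel. Its 1 probe set, 1422529_s_at, gave 20711, 20327, 22696 and 23253.5 in WT sham and 25232, 23298, 27283 and 27989 in WT TAC. In KO sham it gave 24387, 24108.5, 22809.9 and 21013.5, and in KO TAC 25577, 29342, 24267 and 26318. All WT TAC arrays lay above all WT sham arrays, and KO TAC overlapped with WT TAC. The mean TAC effect over both genotypes was 0.22 ± 0.07 (0.07 to 0.38), with adjusted p = 0.269, the smallest of the members in that comparison, in which 0 of 30 were called against 0.533% of all probe sets. TAC gave 0.25 ± 0.10 in WT (adjusted p = 0.715) and 0.19 ± 0.10 in KO (adjusted p = 0.493), and the genotypes differed by 0.02 ± 0.10 in TAC (-0.20 to 0.25). With each array centred on its cardiomyocyte markers, the change for TAC in WT turned to -0.06, while that for TAC in KO was 0.35.

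Trdn encodes triadin, which anchors calsequestrin to the ryanodine receptor. Its 6 probe sets were all tested. The brightest, 1451801_at, spread widely within groups, with arrays from 8323 to 12268 in WT sham, 6526 to 11078 in WT TAC, 6779 to 12257 in KO sham and 6210 to 8245 in KO TAC. All KO TAC arrays lay below all WT sham arrays, while the groups of each of the 4 comparisons overlapped, and the change between genotypes in TAC was -0.34 ± 0.21 (-0.79 to 0.11; adjusted p = 0.504).

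Of the other Trdn probe sets, 1426134_at gave 1246, 1947, 2161 and 2013 in WT sham and 2085, 2098, 1917 and 1874 in WT TAC. In the KO it gave 1318, 1084, 1481 and 1287 after sham and 1390, 1300.3, 1473 and 1638 after TAC. All KO TAC arrays lay below all WT TAC arrays, and in sham the 1 WT array of 1246 lay among those of the KO. The mean KO effect over both operations was -0.48 ± 0.11 (-0.72 to -0.23), with adjusted p = 0.0758, where 0 of 30 members were called against 1.03% of all probe sets. It was called in 4 of 29 other settings, the one without WT sham replicate 1 among them, and its adjusted p over these settings ran from 0.00495 to 0.33. Members called for the mean KO effect in those settings were 2 with trend and robust (1426134_at and 1451940_x_at; 1.63% of all probe sets), and 1426134_at alone with the dimmest 60% left out (2.12% of all), with array weights (1.23% of all) and without WT sham replicate 1 (0.892% of all). In TAC, the KO change was also negative in 1451940_x_at (-0.52 ± 0.16), 1426144_x_at (-0.52 ± 0.23) and 1426142_a_at (-0.46 ± 0.19), with no overlap of arrays in any of them (adjusted p from 0.159 to 0.335). The suffixes _x_at and _s_at mark probe sets that can also bind other transcripts. The sixth, 1426143_at, ranged from 66.4 to 1083 over the 16 arrays, and its interval spanned more than 3 log2 units in each of the 4 comparisons between groups.

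Jph2 encodes junctophilin-2, which holds the SR against the cell membrane so that both calcium channels face each other. Its brightest probe set, 1455404_at, lay between 4428 and 4996 in WT sham, 4091 and 4854 in WT TAC, 3603 and 5169 in KO sham and 4070 and 5438 in KO TAC. All groups overlapped, with changes from -0.10 to 0.12 in the 4 comparisons and an SE of 0.13 for each. The intervals ran from -0.39 to 0.40, so differences up to that size are not excluded by these arrays. The dimmer 1421453_at gave 0.33 ± 0.21 for TAC in WT and -0.32 ± 0.21 between genotypes in TAC (adjusted p = 0.807 and 0.528).

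Cacna1c encodes the pore of the L-type calcium channel, through which calcium enters with each action potential. Its probe set 1421297_a_at lay between 2339 and 2466 in WT sham, 2081 and 2494 in WT TAC, 2271 and 3033 in KO sham and 1749.6 and 2405 in KO TAC. The groups overlapped, and the changes ran from -0.22 ± 0.12 for TAC in KO (-0.48 to 0.05; adjusted p = 0.52) to 0.06 ± 0.12 between genotypes in sham. In 1435730_at, TAC in KO gave -0.40 ± 0.18 (-0.78 to -0.02; adjusted p = 0.373), a value in which KO TAC replicate 1 stood at 428 and the other 3 at 753, 773.5 and 812.5.

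Slc8a1 encodes the sodium-calcium exchanger, the main route by which calcium leaves the myocyte. Its brightest probe set, 1437675_at, varied widely within each group, from 655 to 1226 in WT sham, 634 to 1431 in WT TAC, 587.5 to 1277 in KO sham and 493 to 1089.7 in KO TAC. All groups overlapped, and with an SE of 0.32 the interval between genotypes in TAC ran from -1.13 to 0.25. In 1425817_a_at, TAC in KO gave 0.60 ± 0.23 (0.11 to 1.09; adjusted p = 0.299), with KO TAC arrays at 202, 374, 388 and 379.5 and KO sham arrays at 217, 199.5, 156 and 311. The difference between these 2 probe sets in that comparison was -0.89 ± 0.39 (adjusted p = 0.703). The remaining 1440201_at and 1420210_at were dim, and 1420210_at gave 1.87 ± 0.75 for TAC in WT from WT sham arrays of 7, 22.2, 97.3 and 105.5, of which the first is under the floor of 11.9.

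Camk2d encodes the delta form of calcium/calmodulin-dependent kinase II, which phosphorylates phospholamban and the ryanodine receptor. Of its 7 probe sets 4 were tested. The brightest, 1427763_a_at, gave 1119.5, 918, 1125 and 1168 in WT sham and 1255, 1201, 1295 and 1349 in KO sham, so that all KO sham arrays lay above all WT sham arrays. It gave 1428.5, 1093, 1381 and 1238 in WT TAC, and in KO TAC 1 array at 1917 and the others between 1048 and 1107. The change between genotypes in sham was 0.24 ± 0.18 (-0.14 to 0.62; adjusted p = 0.89). In 1422659_at the changes ran from -0.20 ± 0.11 for TAC in WT to 0.21 ± 0.11 between genotypes in TAC (adjusted p = 0.77 and 0.426). The probe sets 1459457_at and 1439168_at gave -0.15 ± 0.21 and -0.41 ± 0.28 for TAC in WT, against 0.25 ± 0.18 in the brightest. The 3 untested probe sets lay between 3.2 and 183 on all arrays.

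Agreement between the probe sets of a gene was tested on the difference in log2 signal between its brightest probe set and each other one, which gave 20 pairs among the members. In limma over the 9617 pairs of all genes, 0 of the 20 were called in any comparison (0.0208% of all pairs were called between genotypes in TAC and also in sham, 0% for TAC in either genotype or in both together and for the interaction, and 0.0416% for the mean KO effect). At an unadjusted p under 0.05, 6 of the 20 differed for TAC in WT, against 5.95% of all pairs, and 2 of the 20 between genotypes in TAC, against 10.3%. Of those 6, 3 were pairs of Atp2a2 and 1 each of Camk2d, Slc8a1 and Trdn. The Trdn pair of 1451801_at and 1426134_at differed in the mean TAC effect by -0.42 ± 0.12 (unadjusted p = 0.00301, adjusted p = 0.82).

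The brightest members had the same signs as other bright probe sets on these arrays. The spike-in controls, with ranges given above, also stood higher in WT TAC than in WT sham and mostly lower in KO TAC than in WT TAC. The cause was not tested. Of 207 other probe sets with a mean log2 signal of 15 or more, where 1416551_at and 1452363_a_at of Atp2a2 and all 3 of Pln lie, 202 had a positive change for TAC in WT, with a median of 0.19. Between genotypes in TAC, 197 of the 207 were negative, with a median of -0.25, and for TAC in KO 197 were negative, with a median of -0.20. Against these medians, Atp2a2 1416551_at stood at 0.39, -0.43 and -0.20 and Pln 1450952_at at 0.34, -0.42 and -0.30. Between genotypes in sham, 190 of the 207 were positive, with a median of 0.14, beside 0.17 for Atp2a2 1416551_at and 0.22 for Pln 1450952_at. In the interaction, 204 of the 207 were negative, with a median of -0.38, beside -0.59 and -0.63 for these probe sets. In the next band, from 13 to 15, which holds the bright probe sets of Ryr2, Hrc, Casq2 and Trdn, 711 other probe sets had medians of 0.04, -0.08 and -0.09. Hrc stood at 0.06, -0.38 and -0.35 and Ryr2 at -0.05, -0.19 and -0.24, while Casq2 was at 0.25, 0.02 and 0.19. Trdn 1451801_at was at -0.21, -0.34 and -0.32, and Atp2a2 1427250_at at -0.12, 0.08 and -0.15.

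**Figure D3:**
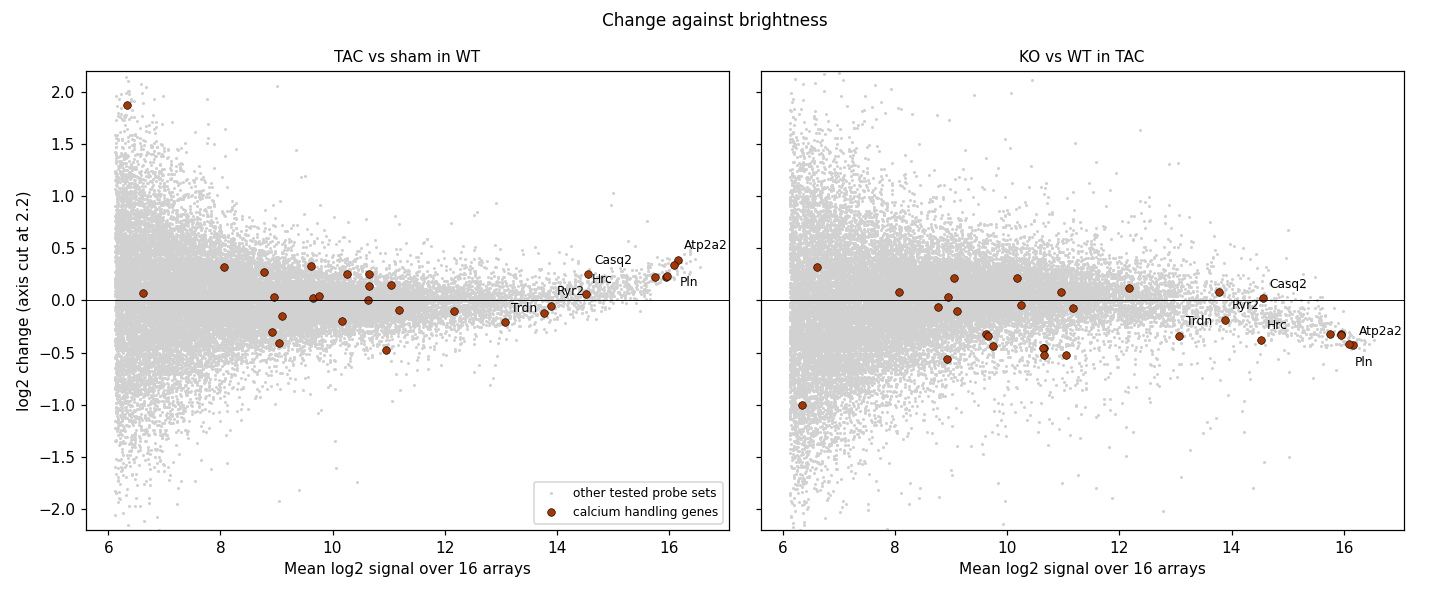
Each dot is a tested probe set at its mean log2 signal over 16 arrays (x) and its log2 change (y, cut at 2.2 on either side), for TAC versus sham in WT (left) and KO versus WT in TAC (right); larger dots are the calcium handling genes, with the brightest probe set of 6 genes named. The cloud of all probe sets bends up on the left and down on the right at its bright end, and Atp2a2 and Pln lie at that end. On the right, Hrc lies low at -0.38, and Casq2 lies within the cloud at 0.02.

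The sizes of these changes depended on how the arrays were scaled. With quantile normalization, which gives every array the same distribution of signals, the change between genotypes in TAC was -0.04 for Atp2a2 1416551_at, -0.07 for Pln 1450952_at, -0.15 for Ryr2 1450123_at and -0.25 for Hrc. For TAC in WT it was then 0.04 for Atp2a2 and 0.03 for Pln. Leaving out the 3 arrays whose spike-in signal was furthest off (WT TAC replicate 3, KO TAC replicates 2 and 3), the genotype changes in TAC were -0.18, -0.20, -0.23 and -0.33. With arrays centred on the mean of the cardiomyocyte markers, a setting chosen after seeing the data, they were -0.12, -0.11, 0.11 and -0.08, so that Ryr2 changed sign; the median of all probe sets then stood at 0.30. Centring on array medians moved the median of all probe sets to 0.19 in this comparison and gave -0.23, -0.22, 0.00 and -0.19. Casq2 gave 0.18, 0.03, 0.33 and 0.21 under these 4 settings.

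**Figure D4:**
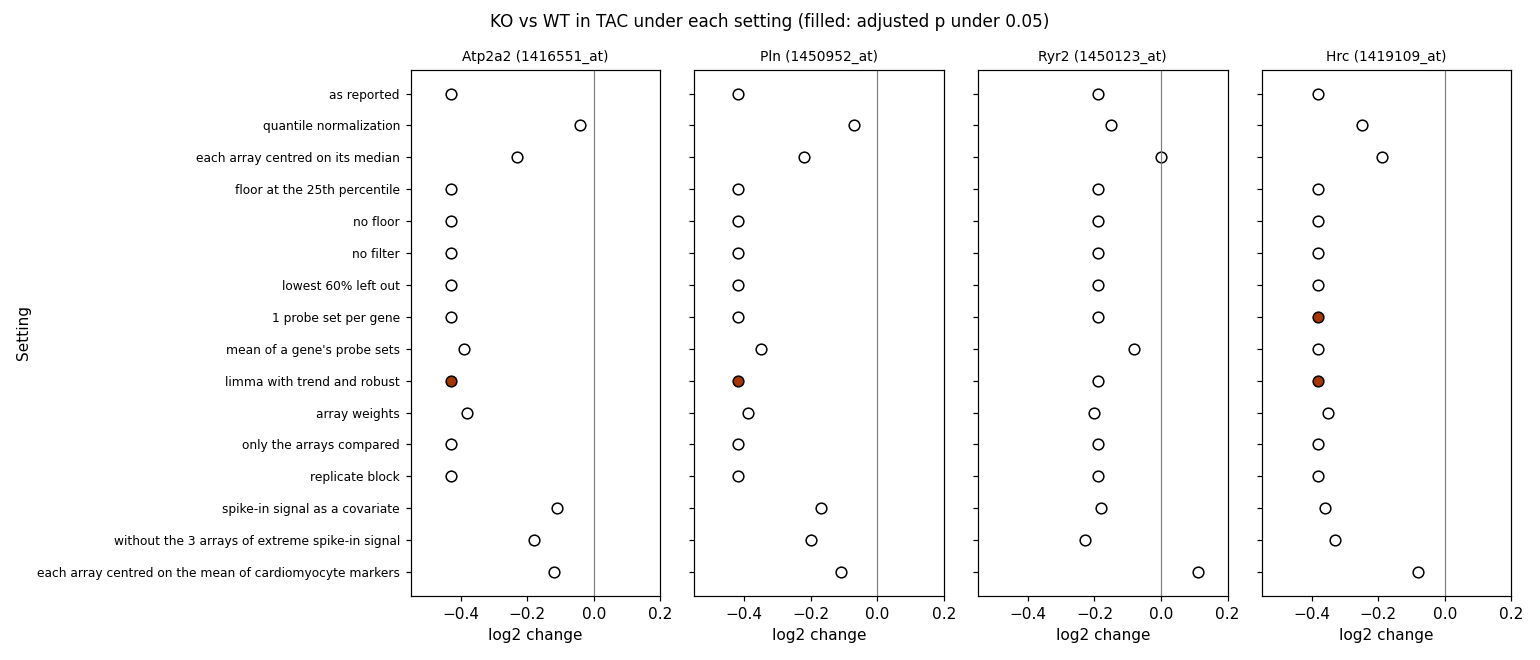
Log2 change of KO versus WT in TAC (x) for the brightest probe sets of Atp2a2, Pln, Ryr2 and Hrc under 16 ways of processing (rows); a filled point has an adjusted p under 0.05. Atp2a2 and Pln lie nearest 0 with quantile normalization, Hrc and Ryr2 do so with centring on medians or on cardiomyocyte markers, and filled points appear for Atp2a2, Pln and Hrc with trend and robust and for Hrc with 1 probe set per gene.

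Other calcium genes were counted in 5 lists of 72 genes, of which 51 had 108 tested probe sets. Among other SR pumps and pump regulators (21 probe sets), release channel and junction proteins (34), calcium entry and extrusion (24) and mitochondrial calcium proteins (13), 0 were called in any comparison. Between genotypes in TAC, the smallest p of the first list was that of Ppp1cb, a catalytic subunit of protein phosphatase 1, with -0.71 ± 0.20 (adjusted p = 0.133). In the second list it was that of Akap6, an anchoring protein for protein kinase A, with -1.44 ± 0.42 (adjusted p = 0.149). In the list of entry and extrusion it was that of Cacna2d1, an accessory subunit of the L-type channel, with 0.83 ± 0.19 (0.42 to 1.23; adjusted p = 0.0581). In the mitochondrial list it was that of Vdac2, a channel of the outer membrane, with -0.31 ± 0.10 (adjusted p = 0.212). For TAC in WT, the smallest p was that of Rrad, a small GTPase that restrains the L-type calcium channel, with 0.74 ± 0.21 (adjusted p = 0.619). In the mean KO effect it was that of Casq1, the skeletal calsequestrin, with an adjusted p of 0.0552 and changes of 1.15 ± 0.33 in sham and 0.92 ± 0.33 in TAC. Between genotypes in sham it was that of Itpr2, an IP3 receptor that releases calcium from internal stores, with -1.65 ± 0.42 (adjusted p = 0.198).

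In the list of CaM kinase II and PKA subunits, 1 of 16 probe sets was called, 1425550_a_at of Prkar1a, the type I regulatory subunit of protein kinase A. It gave 8877.5, 11014.5, 11441 and 9211 in KO TAC and 7343, 7221, 6386 and 7137 in KO sham. All KO TAC arrays lay above all KO sham arrays, and Prkar1a rose with TAC in KO by 0.52 ± 0.11 (0.29 to 0.75; adjusted p = 0.0423). In the mean TAC effect it rose too (adjusted p = 0.0491). The calls were kept in 9 of 30 and 5 of 29 other settings. Of its other probe sets, 1452032_at gave 0.35 ± 0.12 and 1447635_at -0.51 ± 0.53 for TAC in KO. Sln, which encodes sarcolipin, the pump inhibitor of the atria, ran from 5.8 to 5816 over the 16 arrays, and the atrial light chain gene Myl7 from 12.5 to 12058.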

How the data were processed

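The authors deposited a series table of signal intensity per probe set, for which the submitters' processing notes name GCOS 1.4. Each array's trimmed mean between its 2nd and 98th percentiles was 500. Gene symbols came from the platform annotation. Here, signals under 11.9, the 10th percentile over all arrays, were set to it, and log2 was taken. The dimmest 40% by mean log2 signal were left out, so that 27022 of 45037 were tested in limma 3.58.1 (R 4.3.3), in 1 fit of 4 groups and 16 arrays, with lmFit and eBayes, and checked on simulated data. All member probe sets are named. Of the other calcium lists, called probe sets are named, or else genes with the smallest p of a list. The pump difference had a two-sided exact permutation test. Members and lists were chosen with earlier results of these data known. Alternatives were the scaling, floor, filter, gene summary, variance model, replicate block, spike-in signal and each array left out. Centring on cardiomyocyte markers and the block for the pump difference were chosen after seeing the data. Aligned positions of probes were not used here.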

Additional observations from a re-analysis of the deposited data

Results flagged for a closer look

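In groups of 4 arrays, 9 of 124 examined among the members held 1 array far from the other 3 by Dixon's criterion, while chance alone gives about 1 in 20. The criterion is the gap to the nearest array over the range, both in log2 signal, above 0.829. The signals printed here are linear. WT TAC replicate 3 stood low in Atp2a2 1437797_at, at 383.9 with the others between 572.6 and 611.2. It was also low in Trdn 1426143_at, at 96.1 against 510 to 694.4, and in Camk2d 1422659_at, at 883.9 against 1073.1 to 1093.8. KO TAC replicate 1 stood low in Slc8a1 1425817_a_at, at 201.5 against 374 to 387.6, and in Cacna1c 1435730_at, at 427.7 against 753.4 to 812.5. KO TAC replicate 2 stood low in Slc8a1 1420210_at, at 30.9 against 92.4 to 112.7, and in Jph2 1421453_at, at 502.6 against 833.7 to 859.2. KO TAC replicate 4 stood high in Camk2d 1427763_a_at, at 1917.1 against 1048.4 to 1107.3, and WT TAC replicate 1 in Slc8a1 1440201_at, at 191.1 against 73.3 to 79.7. No such array occurred in the probe sets of Pln, Ryr2, Hrc or Casq2.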

How the results depend on the processing

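The count of members called, set beside the share of all probe sets in the results above and 0 as reported in every comparison, was 6 between genotypes in TAC, 1 for TAC in KO and 2 for the mean KO effect in limma with trend and robust. With 1 probe set per gene it was 1 between genotypes in TAC. For the mean KO effect it was 1 (Trdn 1426134_at) with the dimmest 60% left out and with array weights, and 1 (Atp2a2 1437797_at) with the 3 arrays furthest off in spike-in signal left out. Leaving out each array in turn gave 0 to 1 for the mean KO effect, the 1 without WT sham replicate 1, and 0 in the other comparisons. The difference of Atp2a2 and Pln between genotypes in TAC was 0.035 with quantile normalization and 0.119 with the mean of each gene's probe sets, and for TAC in WT -0.318 with that mean. With the same mean, all KO sham arrays lay below all WT sham arrays, while with the brightest probe sets they overlapped. Leaving out 1 array gave -0.035 to 0.03 between genotypes in TAC, 0.011 to 0.075 for TAC in WT, 0.057 to 0.123 for TAC in KO and -0.083 to -0.017 between genotypes in sham. The replicate number as a block gave 0 members called in every comparison and differences of -0.010, 0.050, 0.094 and -0.054. The numbers gave no clear sign of a pairing: 0 of 24 same-numbered pairs correlated above 0.1 (r from -0.115 to 0.084), and 6 of 16 arrays correlated best with their own number. Differently numbered pairs reached 0.083, so this check cannot exclude a pairing. The cause of these shifts was not tested. Signal over background limits the dim probe sets, such as those of Slc8a1 at or near the floor.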
